A study of Mus musculus with 46 samples.

Results

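The 10 genes described here encode the class I major histocompatibility complex (MHC) molecules of the mouse and the machinery that loads them with peptide: H2-K1, H2-D1, H2-T23, B2m, Tap1, Tap2, Tapbp, Psmb8, Psmb9 and Nlrc5. They were chosen by symbol among the 24671 genes of the deposited count table, all 10 were found there, and all 10 passed the filter on low counts, which kept 13838 genes. The choice was made with earlier results of these data known, so their counts beside the share of all genes are descriptions. The cells were mouse bone marrow-derived macrophages, which are grown from marrow progenitors in culture. RNA-seq of polyadenylated RNA gave 46 libraries in 9 treatment groups, with 5 libraries in each ligand group and 6 in Vehicle.

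The groups given a single ligand were 27HC, GW3965, GSK2033, E2 and ICI. 27HC is an oxysterol, a cholesterol metabolite that binds the liver X receptors (LXR) and the estrogen receptors. GW3965 is a synthetic LXR agonist, GSK2033 is an LXR antagonist, E2 is estradiol, and ICI is a compound whose short name the labels do not expand. GSK2033 + 27HC and ICI + 27HC received both compounds named. A further group received GW3965 with a second compound, on which its labels disagree, so that compound is left unnamed here. Vehicle was the control of all of them. All groups were the same labelled cell type, and strain, age, sex, dose and time of treatment were not given in the sources used here. Nothing in them says whether replicates came from separate animals or cultures, so p-values measure the spread between these libraries, which may be technical.

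Class I molecules display peptides from proteins made inside the cell to CD8+ T cells. A polymorphic heavy chain pairs with the invariant light chain, beta-2-microglobulin. Proteasomes cut cytosolic proteins, a peptide transporter in the endoplasmic reticulum membrane pumps the fragments in, and a loading complex holds empty class I molecules until a fitting peptide binds. In macrophages and most other cells the pathway is raised by interferons. H2-K1 and H2-D1 encode classical heavy chains, and H2-T23 encodes the non-classical heavy chain of the Qa-1 molecule, a ligand of inhibitory receptors on NK cells and CD8+ T cells. B2m encodes the light chain. Tap1 and Tap2 encode the subunits of the peptide transporter, and Tapbp encodes tapasin, which bridges it to the class I molecule. Psmb8 and Psmb9 encode catalytic subunits that replace constitutive ones in the immunoproteasome. Nlrc5 encodes a transactivator of class I genes.

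In GRCm38, 8 of the 10 genes lie on chromosome 17, within or beside the MHC. Tapbp spans chr17:33915899-33929292 and H2-K1 spans chr17:33996017-34000347. Psmb9 (chr17:34181987-34187764), Tap1 (chr17:34187553-34197225), Psmb8 (chr17:34197721-34201454) and Tap2 (chr17:34203527-34216321) follow one another. H2-D1 spans chr17:35262730-35267499 and H2-T23 spans chr17:36029773-36032855. B2m lies on chromosome 2 (chr2:122147686-122153083) and Nlrc5 on chromosome 8 (chr8:94434356-94527272). All 10 are annotated as protein coding.

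The RefSeq promoter table, on GRCm38.p6, matched 8 of the 10 genes by symbol. For H2-K1, which has 2 entries shifted by a few bases, the first is shown. Each entry runs from 250 bases before the annotated start to 50 bases after it. The promoters of the 3 heavy chains, the light chain and Tap1 are shown because H2-T23, Tap1 and H2-K1 responded strongly below and H2-D1 and B2m weakly. They are written 5′ to 3′ on the strand of the gene, and capitals mark matches to the motifs named after them. The regions are chr17:34000298-34000597 on the minus strand for H2-K1, chr17:35262844-35263143 on the plus strand for H2-D1, chr17:36032652-36032951 on the minus strand for H2-T23, chr2:122147437-122147736 on the plus strand for B2m and chr17:34187306-34187605 on the plus strand for Tap1.
H2-K1: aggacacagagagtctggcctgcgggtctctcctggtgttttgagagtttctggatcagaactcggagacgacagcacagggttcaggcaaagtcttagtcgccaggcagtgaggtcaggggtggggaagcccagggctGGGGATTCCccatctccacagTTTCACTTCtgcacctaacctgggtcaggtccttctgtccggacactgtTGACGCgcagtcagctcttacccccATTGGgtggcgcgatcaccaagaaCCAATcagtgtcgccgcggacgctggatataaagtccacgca
H2-D1: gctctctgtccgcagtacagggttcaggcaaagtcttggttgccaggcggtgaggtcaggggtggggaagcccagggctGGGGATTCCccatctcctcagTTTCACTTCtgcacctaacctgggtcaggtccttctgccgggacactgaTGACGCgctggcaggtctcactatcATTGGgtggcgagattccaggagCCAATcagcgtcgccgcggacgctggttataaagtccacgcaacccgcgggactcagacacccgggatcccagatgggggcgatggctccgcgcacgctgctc
H2-T23: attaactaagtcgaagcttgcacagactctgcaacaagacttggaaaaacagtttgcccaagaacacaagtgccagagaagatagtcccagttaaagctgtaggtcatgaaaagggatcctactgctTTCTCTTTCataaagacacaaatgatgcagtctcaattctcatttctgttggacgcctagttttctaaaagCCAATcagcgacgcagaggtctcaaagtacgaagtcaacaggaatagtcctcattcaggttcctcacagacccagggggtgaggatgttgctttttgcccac
B2m: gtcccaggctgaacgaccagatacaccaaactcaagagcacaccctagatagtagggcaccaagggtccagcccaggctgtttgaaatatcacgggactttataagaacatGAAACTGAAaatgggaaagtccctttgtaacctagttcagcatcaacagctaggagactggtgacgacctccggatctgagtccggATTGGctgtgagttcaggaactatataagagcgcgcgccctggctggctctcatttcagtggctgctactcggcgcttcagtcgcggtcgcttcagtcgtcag
Tap1: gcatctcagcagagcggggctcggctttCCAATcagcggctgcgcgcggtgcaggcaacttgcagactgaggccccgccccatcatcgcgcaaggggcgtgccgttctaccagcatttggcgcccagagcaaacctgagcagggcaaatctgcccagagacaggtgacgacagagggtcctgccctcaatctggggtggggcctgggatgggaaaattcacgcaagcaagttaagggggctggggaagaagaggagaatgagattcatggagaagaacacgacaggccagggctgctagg

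Motifs were searched on both strands, and positions are offsets of the first base from the annotated start. The H2-K1 and H2-D1 promoters both held GGGGATTCC, the core of a kB site, at -111 and -171. This motif stood in 0.25% of the 32851 promoters of the table. On the opposite strand the same pair held GAANNGAAA at -90 and -150, a motif that 7.52% of promoters held and that was added to the search after the sequences had been seen. It also held TGACGC, an X2 box core found in 7.4% of promoters, at -41 and -101. Between H2-K1 and H2-D1 every one of these offsets differed by 60 bases, and at that shift 176 of 240 aligned bases were identical (73.3%).

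H2-T23 and B2m held GAAANNGAA, the core of an interferon-stimulated response element, at -123 and -139, against 8.56% of all promoters. Psmb8 held TTCNNNGAA, the core of a STAT site, at -97, against 8.3% of all promoters. CCAAT, the core of the Y box, stood in 7 of the 8 promoters, all but that of Psmb8, and in 37.4% of all promoters. TGACGTCA, another X2 box core, was in none of the 8 and in 1.79% of all promoters. Tap1 and Psmb9 are transcribed away from each other, and their annotated spans overlap by 212 bases. Their promoter entries share 275 bases, which hold the same CCAAT site, counted for both genes. These matches describe letters in the windows and are not evidence of binding.

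The libraries held 19354093 to 30921038 estimated counts each. Among the 10 genes, Nlrc5 was the most thinly covered, with 190 to 1192 counts per library, and B2m the most deeply, with 54250 to 159281. Levels are given as CPM, counts scaled to library size with factors between libraries. Differences were tested with edgeR's quasi-likelihood test on all 46 libraries, with Benjamini-Hochberg adjustment over the 13838 genes, and a gene is said to rise or fall where its adjusted p is below 0.05. All adjusted p-values of single genes below come from that test. The comparisons with Vehicle share the same 6 control libraries. Where libraries of groups are said not to overlap, the share of all genes tested without overlap was not computed. Those statements therefore have no background to be read against.

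The macrophage markers Adgre1, Csf1r and Cd68 were at 1138 CPM or more in every library. Most markers of other leukocytes were at or near 0: Cd3e did not pass 0.53 CPM, Cd79a 0.0929 CPM, Ncr1 0.318 CPM, Ly6g 0.0473 CPM and Flt3 0.0502 CPM. A few markers of the same lists were present in every library, with Cd4 at 4.32 to 26.8 CPM, Cd79b at 1.08 to 4.3 CPM, S100a8 at 0.571 to 2.52 CPM and Zbtb46 at 0.386 to 1.47 CPM. All 6 stromal cell markers were present, led by Col1a1, at 987 to 2024 CPM. In bulk RNA, fewer cells of a type and less RNA per cell cannot be told apart, and this applies to every level below.

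The 10 genes together took 0.847% ± 0.0252 of all counts in 27HC libraries, 0.826% ± 0.0184 in GW3965 libraries and 1.82% ± 0.0396 in GSK2033 libraries, against 1.56% ± 0.0341 in Vehicle libraries (SD, n = 5, 5, 5 and 6). Per kilobase of annotated exon, in Vehicle libraries, B2m stood highest at 6003 CPM per kb, followed by H2-D1 at 1839 and H2-K1 at 1163. Tapbp was at 286 CPM per kb, H2-T23 at 203 and Psmb8 at 76.2. Transporter transcripts were lower, with Tap1 at 37.3 CPM per kb and Tap2 at 30.9, and Psmb9 at 16.3 and Nlrc5 at 3.73 came last.

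The order of the 9 groups was nearly the same in each of the 10 genes. GSK2033 had the highest mean in all 10. ICI and Vehicle came next, and their libraries overlapped in all 10. E2 followed and then GSK2033 + 27HC, with libraries that overlapped for H2-D1, Tap1, Tap2, Psmb8 and Nlrc5. The 4 lowest places went to 27HC, GW3965, ICI + 27HC and GW3965 with its second compound, in an order that differed between genes. In all 10 genes the libraries of GSK2033 + 27HC lay above those of the group next below them. The ratio of the highest to the lowest group mean was 4.51 for Tap1, 4.4 for H2-T23 and 3.6 for Nlrc5, and 1.86 for Tap2, 1.91 for H2-D1 and 2.01 for B2m.

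**Figure D1:**
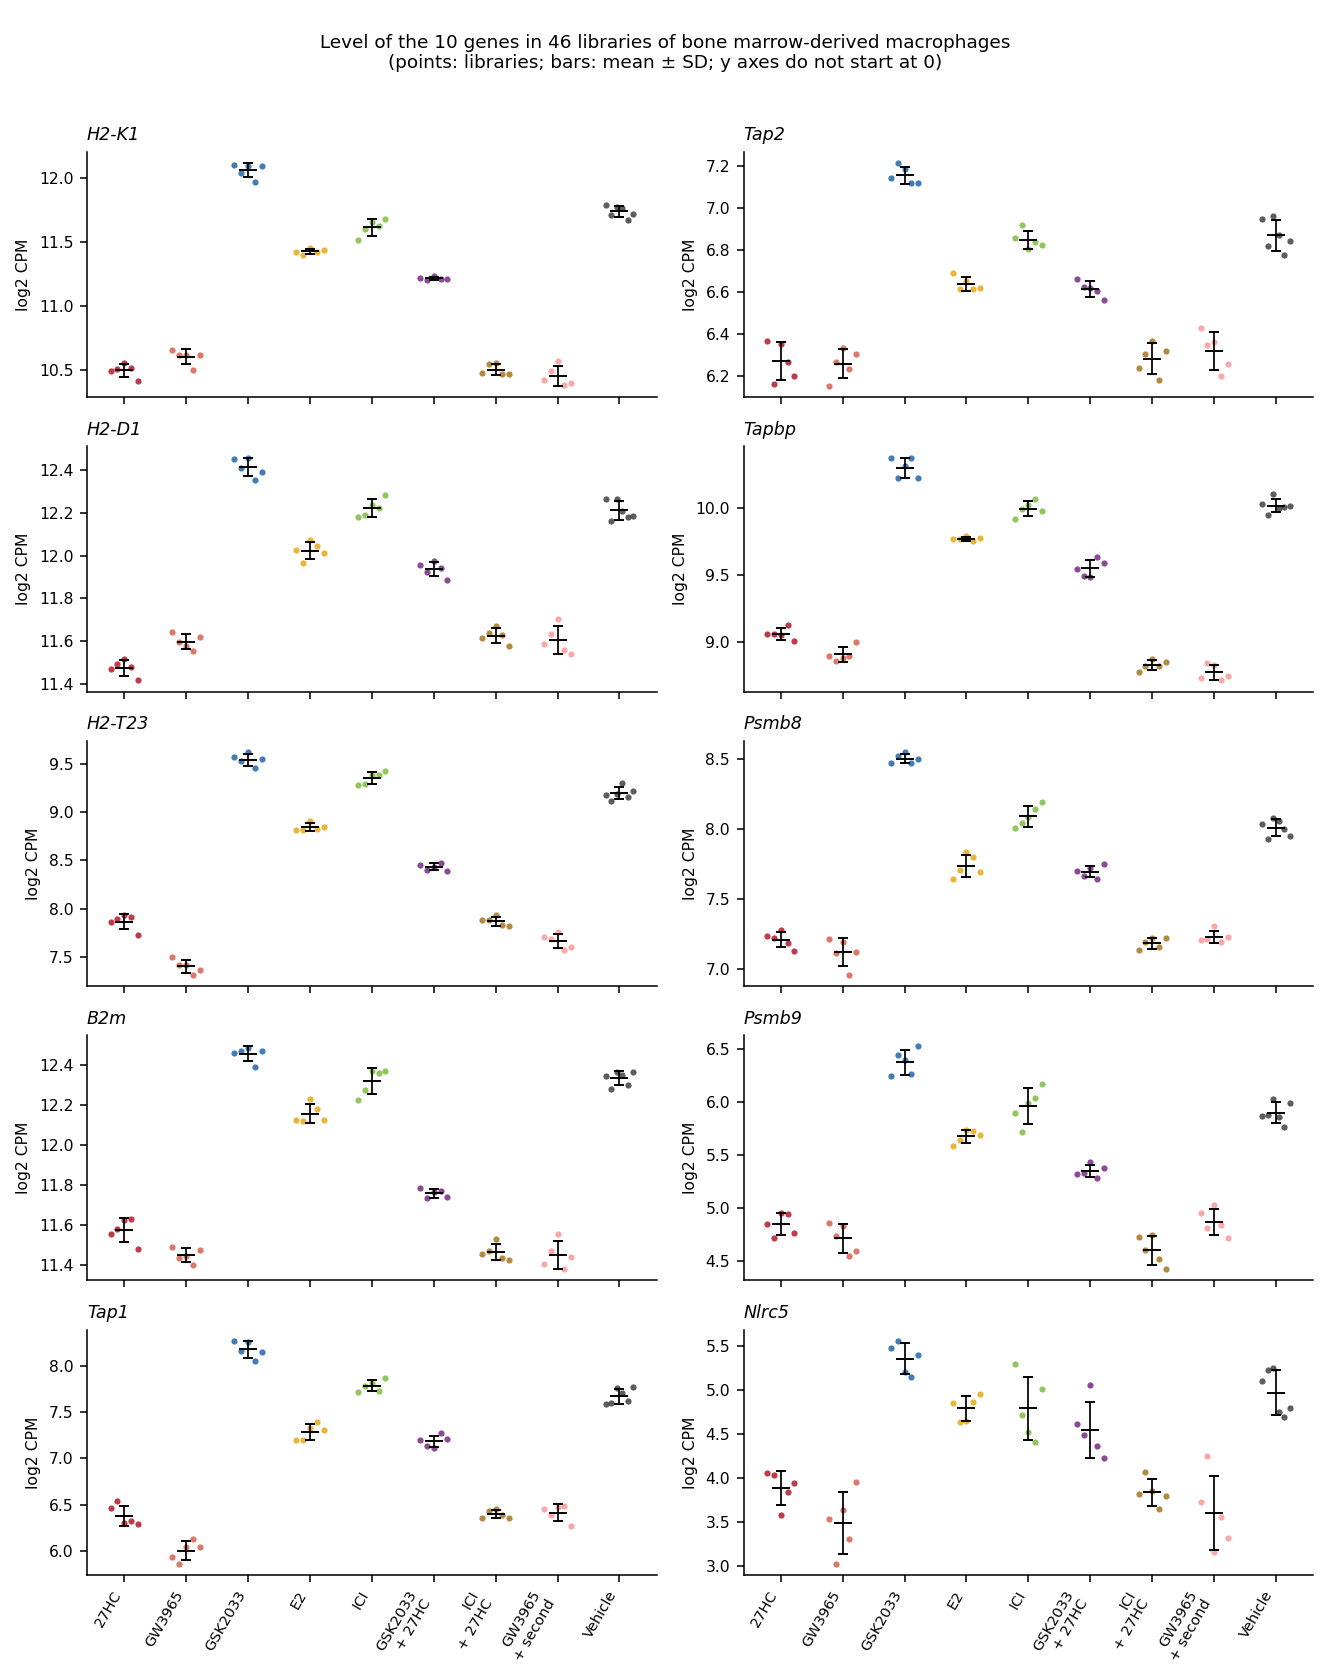
Level of each of the 10 genes as log2 CPM (y axes, not starting at 0) in each of the 46 libraries, by treatment group (x axis). Points are libraries and bars are the mean ± SD. In every panel GSK2033 is highest, the 4 groups given 27HC, GW3965, ICI + 27HC or GW3965 with a second compound are lowest, and GSK2033 + 27HC lies between.

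With 27HC, all 10 genes fell against Vehicle, by a median of 1.01 on the log2 scale, and the libraries of both groups did not overlap for any of them. Of the 13838 genes tested, 20.0% were lower and 20.3% higher in this comparison, and the median over all of them was -0.00. The classical heavy chain H2-K1 was at 1446, 1462, 1508, 1465 and 1365 CPM in 27HC libraries, against 3269, 3425 and 3539 CPM (lowest, median and highest) in Vehicle libraries. The highest 27HC library was far below the lowest control. H2-K1 averaged 1449 ± 52.0 CPM with 27HC and 3418 ± 105 CPM in Vehicle (SD), a 2.36-fold lower level (log2 fold change -1.24, SE 0.03, adjusted p = 1.66e-32).

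H2-D1, the other classical heavy chain, fell less, with 2840, 2879, 2926, 2860 and 2734 CPM in 27HC libraries and 4585 to 4925 CPM in Vehicle libraries, a log2 fold change of -0.74 (SE 0.03, adjusted p = 3.9e-27). H2-T23, the Qa-1 heavy chain, was at 233, 238, 245, 241 and 212 CPM with 27HC, against 556 to 630 CPM in Vehicle libraries. That was the widest fall of the 10, 2.51-fold (log2 fold change -1.33, SE 0.04, adjusted p = 4.51e-31). B2m had 3009, 3056, 3158, 3162 and 2856 CPM in 27HC libraries and 4964 to 5281 CPM in Vehicle libraries, 1.69-fold lower (adjusted p = 7.61e-26). The light chain and H2-D1 thus fell by similar amounts, and H2-K1 and H2-T23 by more.

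Of the annotated 31-base words of these genes, 22.8% of those of H2-K1, 26.9% of those of H2-D1 and 25.8% of those of H2-T23 also occur in other genes, and none of those of B2m. How the estimates split reads between heavy chains is therefore uncertain. With the 27 heavy chain genes of the class I family summed, the fall with 27HC was -0.99 (log2, SE 0.03).

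Among the peptide transporter and loading genes, Tap1 was at 88.0, 92.6, 78.9, 79.9 and 78.1 CPM with 27HC and at 193 to 219 CPM in Vehicle libraries, 2.44-fold lower (log2 fold change -1.29, SE 0.05, adjusted p = 9.12e-26). Its partner Tap2 moved less, to 77.2 ± 4.83 CPM with 27HC against 117 ± 5.93 CPM in Vehicle (SD; log2 fold change -0.60, SE 0.04, adjusted p = 2.74e-17). Both transporter subunits fell, Tap1 by the larger estimate. Tapbp was at 534, 532, 530, 558 and 513 CPM in 27HC libraries and at 989 to 1101 CPM in Vehicle libraries (log2 fold change -0.96, adjusted p = 4.48e-28). For Tapbp, 26.9% of its 31-base words also occur in other annotated genes, and for Tap2 14.3%.

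Both immunoproteasome subunits fell. Psmb8 was at 148 ± 5.64 CPM with 27HC and 258 ± 10.8 CPM in Vehicle (SD), a log2 fold change of -0.80 (adjusted p = 1.28e-22). Psmb9 had 28.7, 26.3, 30.9, 30.7 and 27.1 CPM in 27HC libraries, against 54.1 to 65.3 CPM in Vehicle libraries, 2.08-fold lower (adjusted p = 2.5e-17). The transactivator gene Nlrc5 had 16.5, 16.2, 11.9, 14.2 and 15.3 CPM with 27HC, against 25.9, 30.96 and 38.1 CPM (lowest, median and highest) in Vehicle libraries (log2 fold change -1.09, SE 0.17, adjusted p = 4.76e-07). Nlrc5 was the lowest in level and the least precise, and its libraries still did not overlap between 27HC and Vehicle.

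GW3965 lowered all 10 as well, by a median of 1.12 on the log2 scale and with no overlap with Vehicle for any of them, where 21.1% of all genes tested were lower and 23.1% higher. H2-T23 was at 181, 172, 172, 159 and 165 CPM in GW3965 libraries, against 556 to 630 CPM in Vehicle libraries. This 3.46-fold fall was the widest of any of the 10 genes against Vehicle in any group (log2 fold change -1.79, SE 0.04, adjusted p = 4.31e-36). Tap1 was at 61.3, 58.1, 65.8, 70.0 and 66.0 CPM with GW3965, 3.18-fold below Vehicle (adjusted p = 5.78e-30). Nlrc5 was at 11.5, 8.05, 12.4, 9.77 and 15.4 CPM, a log2 fold change of -1.48 (SE 0.17, adjusted p = 8.12e-10). H2-D1 (-0.61) and Tap2 (-0.61) fell least, and H2-K1 fell by 1.13, Tapbp by 1.11, Psmb9 by 1.19, Psmb8 by 0.89 and B2m by 0.89 on the log2 scale.

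Set directly against GW3965, 27HC left 4 of the 10 genes higher and 2 lower, where 12.8% of all genes tested were higher and 12.5% lower. H2-T23 averaged 234 ± 12.8 CPM with 27HC and 170 ± 8.11 CPM with GW3965 (SD, n = 5 each; log2 fold change 0.46, SE 0.04, adjusted p = 8.62e-14), and Tap1 averaged 83.5 ± 6.47 CPM and 64.2 ± 4.63 CPM (log2 fold change 0.38, adjusted p = 1.4e-07). Tapbp (0.15, adjusted p = 0.000333) was also higher with 27HC, as was B2m (0.13, adjusted p = 0.00097), whose libraries overlapped. The summed heavy chains differed by -0.08 in the same test (adjusted p = 0.0323). That sum was mostly H2-K1 and H2-D1, at 3418 and 4743 CPM in Vehicle beside 586 CPM for H2-T23. It therefore does not check H2-T23. The classical heavy chains went the other way from H2-T23. H2-D1 was lower with 27HC (log2 fold change -0.12, adjusted p = 0.000358), and so was H2-K1 (-0.11, adjusted p = 0.00994), whose libraries overlapped.

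For the remaining 4 genes the difference missed the threshold. Its 95% interval ran from -0.07 to 0.10 for Tap2, 0.01 to 0.17 for Psmb8, -0.02 to 0.28 for Psmb9 and 0.02 to 0.76 for Nlrc5. H2-K1 missed the threshold with no filter on low counts (0.068) and without 27HC replicate 5 (adjusted p = 0.102), GW3965 replicate 1 (0.0722) or GW3965 replicate 5 (0.052). Psmb8 passed it without 27HC replicate 5 (adjusted p = 0.023), GW3965 replicate 1 (0.0187) or GW3965 replicate 3 (0.0296), and Nlrc5 without GW3965 replicate 5 (0.0386).

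Markers moved in the same libraries. The 6 stromal markers summed to 3370 to 3814 CPM with 27HC and 3241 to 3880 CPM with GW3965, against 4273 to 5046 CPM in Vehicle. Of the 6, 5 fell with each ligand and 1 rose with 27HC. The 7 macrophage markers summed to 6900 to 7149 CPM with 27HC and 5931 to 6279 CPM with GW3965, against 9746 to 10260 CPM in Vehicle. Under 27HC 4 of 7 were lower and 2 higher, and under GW3965 5 of 7 were lower and 2 higher. Of all genes tested, 20.0% were lower and 20.3% higher with 27HC, and 21.1% lower and 23.1% higher with GW3965. The 5 T cell markers summed to 7.81 to 10.7 CPM with 27HC and 6.77 to 9.51 CPM with GW3965, against 15.4 to 18.9 CPM in Vehicle, nearly all of it Cd4, and mitochondrially encoded genes took 1.8% to 2.05% and 2.03% to 2.28% of counts, against 1.43% to 1.68%. The part of these shifts in the falls of class I genes was not tested.

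**Figure D2:**
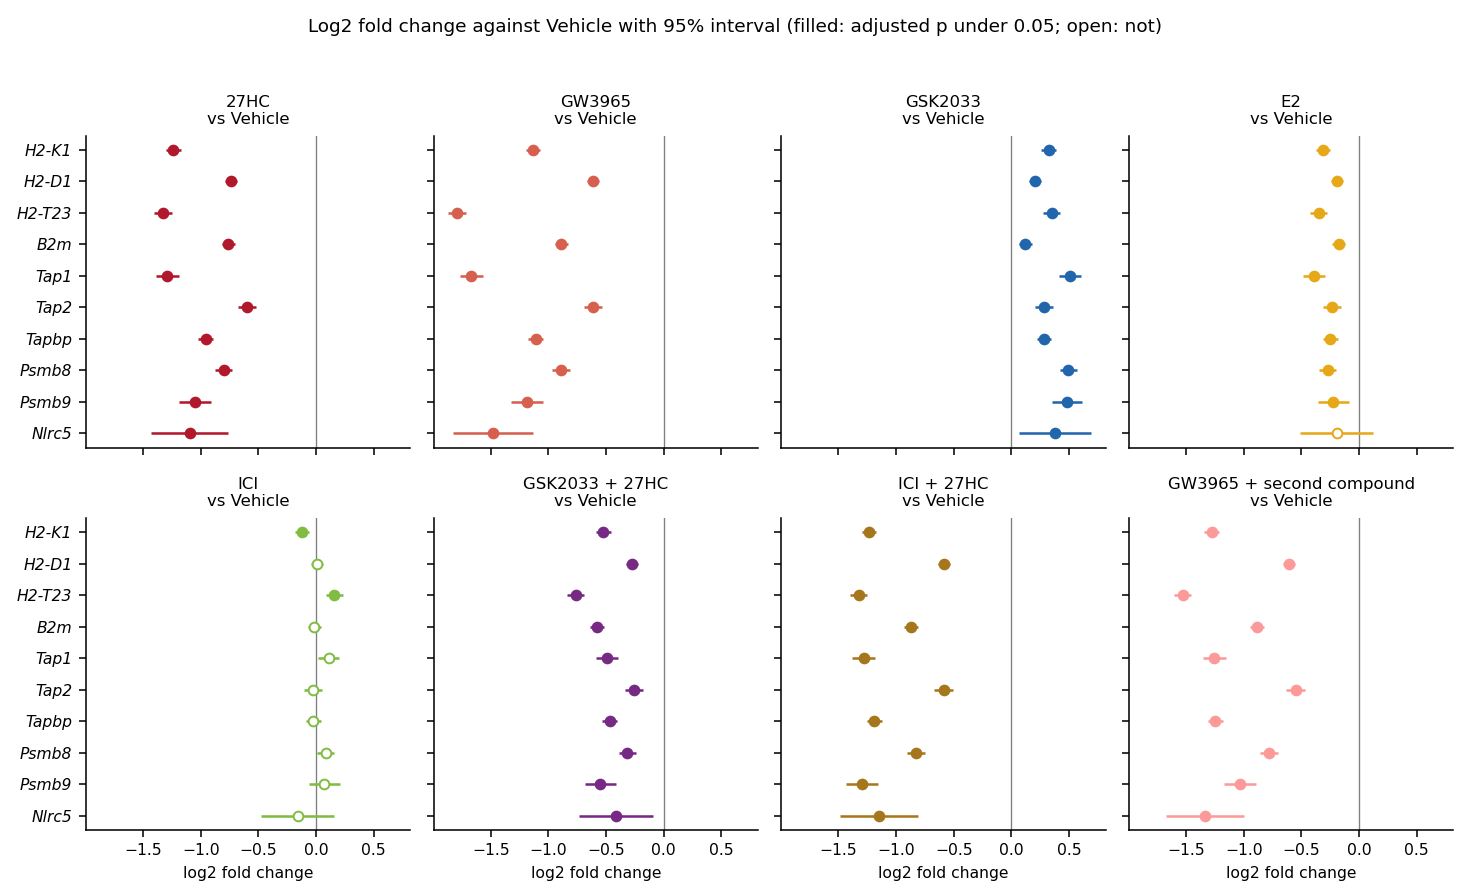
Log2 fold change against Vehicle (x axes) of each of the 10 genes (y axes) in the 8 ligand groups, with the 95% interval as a line. Filled points have an adjusted p below 0.05 and open points do not. The points of 27HC, GW3965, ICI + 27HC and GW3965 with a second compound lie left of -0.5, those of GSK2033 lie right of 0, and those of E2 lie between -0.39 and -0.18.

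The LXR antagonist GSK2033 raised all 10 genes against Vehicle, by a median of 0.34 on the log2 scale, where 18.4% of all genes tested were higher and 17.9% lower. For 9 of the 10 the libraries did not overlap. Tap1 was at 308, 286, 306, 264 and 284 CPM in GSK2033 libraries, against 193 to 219 CPM in Vehicle libraries, and rose most (log2 fold change 0.51, SE 0.05, adjusted p = 2.14e-12). Psmb8 was at 355, 367, 375, 354 and 362 CPM with GSK2033, against 243 to 270 CPM in Vehicle libraries (0.49, adjusted p = 2.1e-15), and Psmb9 rose by 0.48 (adjusted p = 4.28e-08). H2-K1 averaged 4272 ± 161 CPM with GSK2033 and 3418 ± 105 CPM in Vehicle (SD; log2 fold change 0.32, adjusted p = 4.33e-12). B2m rose least, by 0.12 (SE 0.03, adjusted p = 0.00061).

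Nlrc5 was the exception on overlap, with 44.3, 47.0, 36.8, 35.4 and 42.1 CPM under GSK2033 and 25.9 to 38.1 CPM in Vehicle libraries. Its rise of 0.38 (SE 0.15) had an adjusted p of 0.0494. It missed the threshold with no filter on low counts (0.108) and without any one of Vehicle replicates 4, 5 and 6 or GSK2033 replicates 1, 2 and 5, where the adjusted p ran from 0.0814 to 0.123. Under GSK2033 the stromal markers summed to 3710 to 4524 CPM against 4273 to 5046 CPM in Vehicle, and the macrophage markers to 8925 to 9466 CPM against 9746 to 10260 CPM. Of these markers 4 of 6 and 5 of 7 were lower, and 1 macrophage marker was higher. Among all genes tested, 17.9% were lower and 18.4% higher. T cell markers, mostly Cd4, summed to 20.4 to 25.0 CPM with GSK2033, against 15.4 to 18.9 CPM in Vehicle. Their part in the rises was not tested.

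When 27HC was given with GSK2033, all 10 genes were lower than in Vehicle, by a median of 0.48 on the log2 scale, where 26.4% of all genes tested were lower and 24.1% higher. H2-K1 was at 2382, 2355, 2417, 2376 and 2369 CPM, below every Vehicle library and above every 27HC library. H2-T23 fell most against Vehicle (log2 fold change -0.76, SE 0.04, adjusted p = 1.3e-22) and Tap2 least (-0.26, adjusted p = 2.52e-07). Nlrc5, at 24.5, 22.4, 33.2, 20.5 and 18.6 CPM, overlapped with Vehicle (log2 fold change -0.41, adjusted p = 0.027). Its call was lost with no filter (0.0717) and without any one of Vehicle replicates 1, 2 and 3 or GSK2033 + 27HC replicates 2, 4 and 5, with adjusted p-values of 0.0511 to 0.105. Stromal markers summed to 3622 to 3948 CPM with both compounds, against 4273 to 5046 CPM in Vehicle, and macrophage markers to 6200 to 6534 CPM, against 9746 to 10260 CPM. T cell markers, mostly Cd4, summed to 11.1 to 13.1 CPM, against 15.4 to 18.9 CPM, and the part of these shifts was not tested.

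Against 27HC alone, GSK2033 + 27HC left all 10 genes higher, with no overlap between the groups for any of them, by a median of 0.50 on the log2 scale, where 21.1% of all genes tested were higher and 21.7% lower. Tap1 was at 146, 140, 138, 154 and 148 CPM with both compounds, against 78.1 to 92.6 CPM with 27HC alone (log2 fold change 0.80, SE 0.05, adjusted p = 8.22e-18). H2-K1 was 1.64-fold higher (adjusted p = 2.49e-23) and Nlrc5 1.6-fold higher (adjusted p = 0.00111). B2m differed least, at 3462 ± 53.6 CPM with both and 3048 ± 126 CPM with 27HC alone (SD, n = 5 each; log2 fold change 0.18, adjusted p = 1.61e-06).

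Against GSK2033 alone, adding 27HC lowered all 10, by a median of 0.80, with no overlap for any of them, where 18.8% of all genes tested were lower and 17.1% higher. The interaction asks whether the change with 27HC differed beside GSK2033, as the log2 fold change of GSK2033 + 27HC over GSK2033 minus that of 27HC over Vehicle. It was above 0 for 5 of the 10 genes and below 0 for none, where 9.34% of all genes tested were higher and 10.3% lower. H2-K1 fell by 0.84 with 27HC beside GSK2033 and by 1.24 with 27HC alone, a difference of 0.39 (SE 0.04, adjusted p = 1.54e-09). The other called genes were Tap1 (0.29, adjusted p = 0.00124), H2-D1 (0.26, adjusted p = 4.52e-07), H2-T23 (0.22, adjusted p = 0.00162) and Tapbp (0.21, adjusted p = 0.000584). In those 5, the log2 fold change with 27HC was smaller in size when GSK2033 was present.

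For the other 5 genes the interaction missed the threshold. Its 95% interval ran from -0.02 to 0.15 for B2m, -0.06 to 0.17 for Tap2, -0.12 to 0.10 for Psmb8, -0.17 to 0.22 for Psmb9 and -0.16 to 0.77 for Nlrc5. The immunoproteasome subunits thus gave intervals on both sides of 0, while all 3 heavy chains gave intervals above it. For Psmb8 the fall with 27HC was 0.81 beside GSK2033 and 0.80 with 27HC alone.

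**Figure D3:**
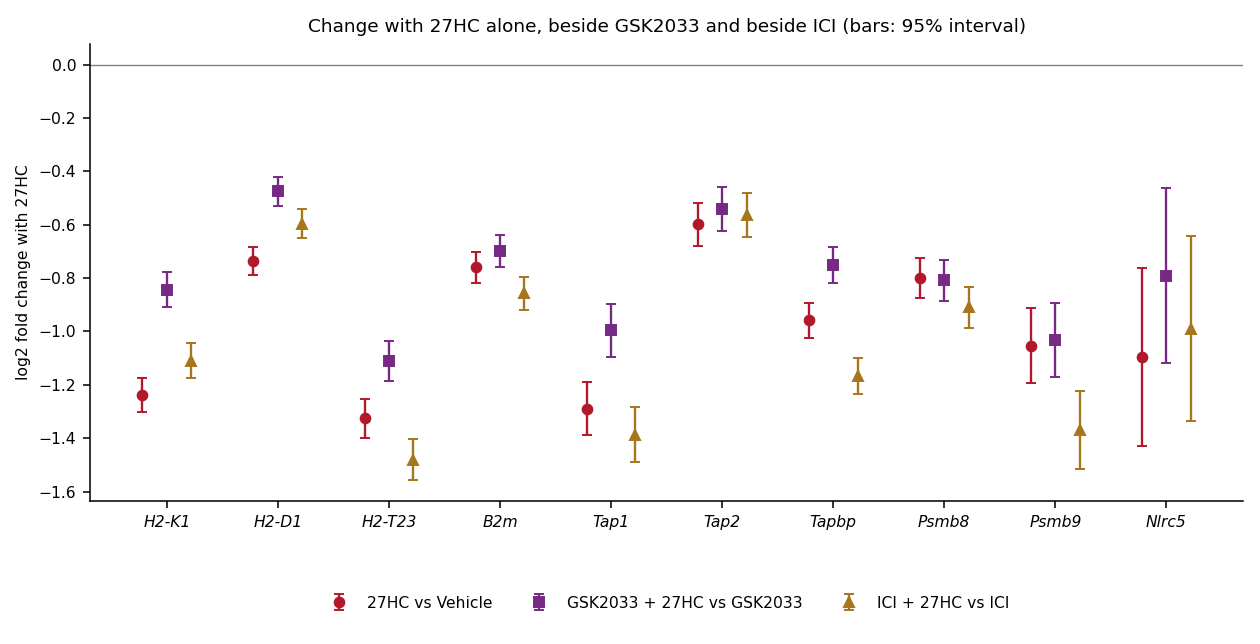
Log2 fold change with 27HC (y axis) of the 10 genes (x axis) when given alone (27HC vs Vehicle), beside GSK2033 (GSK2033 + 27HC vs GSK2033) and beside ICI (ICI + 27HC vs ICI), with 95% intervals as bars. The GSK2033 points of H2-K1, H2-D1, H2-T23, Tap1 and Tapbp lie above those of 27HC alone, and the Psmb8 points of both lie at -0.81 and -0.80.

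Estradiol (E2) moved the 10 genes a short way in one direction. All but Nlrc5 fell against Vehicle, 9 of 10, where 2.49% of all genes tested were lower and 2.2% higher, and the libraries of those 9 did not overlap. The median over the 10 was -0.24 and over all genes 0. H2-K1 was at 2743, 2707, 2801, 2743 and 2773 CPM in E2 libraries, against 3269 to 3539 CPM in Vehicle libraries (log2 fold change -0.31, SE 0.03, adjusted p = 2.04e-10). H2-T23 was at 451, 449, 481, 455 and 461 CPM with E2, against 556 to 630 CPM (-0.35, adjusted p = 5.24e-10), and Tap1 at 147, 147, 160, 168 and 158 CPM, against 193 to 219 CPM (-0.39, adjusted p = 5.88e-08). In each of these the E2 libraries sat in a band of their own under the controls.

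Tapbp (-0.25), Psmb8 (-0.27), Tap2 (-0.23), H2-D1 (-0.19) and B2m (-0.18) fell with adjusted p-values from 1.32e-07 to 3.38e-05. Psmb9 fell by 0.22 with an adjusted p of 0.0374, which became 0.056 with no filter on low counts and 0.0519 with the replicate block. The call was also lost without any one of Vehicle replicates 1, 3 and 6 or E2 replicates 1, 2 and 5, with adjusted p-values of 0.0529 to 0.108. For Nlrc5, at 24.9 to 30.8 CPM with E2 and 25.9 to 38.1 CPM in Vehicle libraries, the 95% interval ran from -0.51 to 0.12. Under E2 the marker sums overlapped with those of Vehicle: stromal markers summed to 4403 to 4956 CPM against 4273 to 5046 CPM, and macrophage markers to 10000 to 10340 CPM against 9746 to 10260 CPM. Of these lists 1 stromal marker fell, and 3 macrophage markers rose and 1 fell. Mitochondrially encoded genes took 1.74% to 1.95% of counts with E2, against 1.43% to 1.68% in Vehicle, with no overlap, and the part of these shifts was not tested.

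With ICI alone 1 of the 10 genes rose and 1 fell against Vehicle, and the libraries of all 10 overlapped, where 13.9% of all genes tested were higher and 12.5% lower. H2-T23 averaged 654 ± 29.4 CPM with ICI and 586 ± 25.4 CPM in Vehicle (SD; log2 fold change 0.16, adjusted p = 0.000506), and H2-K1 averaged 3139 ± 139 CPM and 3418 ± 105 CPM (-0.12, adjusted p = 0.00163). The other 8 missed the threshold, with 95% intervals between -0.10 and 0.20 except for Nlrc5, whose interval ran from -0.47 to 0.16. Tap1 (0.11, adjusted p = 0.0837) passed it without Vehicle replicate 6 (0.045) and with the replicate block (0.0425), and Psmb8 (0.08, adjusted p = 0.0897) without ICI replicate 1 (0.0395). With the class I heavy chains summed the difference was -0.02 (adjusted p = 0.665). Stromal markers summed to 3587 to 4231 CPM with ICI, against 4273 to 5046 CPM in Vehicle, and all 6 fell. Macrophage markers summed to 8625 to 9040 CPM with ICI, against 9746 to 10260 CPM, with 3 higher and 4 lower, and mitochondrially encoded genes took 1.75% to 2.09% of counts, against 1.43% to 1.68%, and the part of these shifts was not tested.

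ICI + 27HC lowered all 10 genes against Vehicle, by a median of 1.17, with no overlap, where 26.4% of all genes tested were lower and 26.6% higher. Stromal markers then summed to 2759 to 3155 CPM, against 4273 to 5046 CPM in Vehicle, and macrophage markers to 5089 to 5256 CPM, against 9746 to 10260 CPM. T cell markers, mostly Cd4, summed to 5.59 to 6.78 CPM, against 15.4 to 18.9 CPM, and the part of these shifts was not tested. All 10 were also lower than with ICI alone, by a median of 1.05, where 20.7% of all genes tested were lower and 19.7% higher. H2-T23 was at 235, 236, 245, 229 and 227 CPM with ICI + 27HC, against 621, 626, 668, 668 and 688 CPM with ICI (log2 fold change -1.48, SE 0.04, adjusted p = 2.11e-32). Psmb9 was at 26.5, 24.2, 26.7, 22.8 and 21.3 CPM, against 59.5, 52.6, 63.4, 65.8 and 71.9 CPM with ICI (-1.37, SE 0.07, adjusted p = 1.03e-20). For both genes every library with 27HC lay below every library of ICI alone.

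Compared with 27HC alone, ICI + 27HC left 1 of the 10 genes higher and 3 lower, where 16.8% of all genes tested were higher and 17.4% lower. H2-D1 was higher, at 3163 ± 73.7 CPM with both and 2848 ± 71.3 CPM with 27HC alone (SD, n = 5 each; log2 fold change 0.15, adjusted p = 1.17e-05). Tapbp was lower, at 454 ± 10.8 CPM with both and 533 ± 16.0 CPM with 27HC alone (-0.23, adjusted p = 1.86e-07), and so were Psmb9 (-0.24, adjusted p = 0.00894) and B2m (-0.11, adjusted p = 0.00286), whose libraries overlapped. For H2-K1 the 95% interval was -0.06 to 0.07 and for H2-T23 -0.07 to 0.08.

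The interaction of ICI and 27HC, the change with 27HC beside ICI minus that of 27HC alone, was above 0 for H2-D1 (0.14, adjusted p = 0.005) and H2-K1 (0.13, adjusted p = 0.0377). It was below 0 for Psmb9 (-0.31, adjusted p = 0.0205), Tapbp (-0.21, adjusted p = 0.000611) and H2-T23 (-0.16, adjusted p = 0.031), so 2 of the 10 were higher and 3 lower, where 7.39% of all genes tested were higher and 9.97% lower. H2-D1 and Tapbp kept an adjusted p below 0.05 in every alternative fit of their own counts, including each fit that left out a library. The other 3 did not, and 3 genes instead of 5 were called without 27HC replicate 4, ICI replicate 5 or either of ICI + 27HC replicates 2 and 5, and also with no filter on low counts.

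H2-K1 lost its call in this interaction without Vehicle replicate 1 (adjusted p = 0.068) or 3 (0.0618), 27HC replicate 1 (0.057) or 5 (0.0909), ICI replicate 1 (0.105) or 2 (0.0521), or ICI + 27HC replicate 2 (0.0662) or 3 (0.0624). H2-T23 lost it without Vehicle replicates 2 or 5, 27HC replicates 2, 3 or 4, ICI replicates 4 or 5, or ICI + 27HC replicates 1, 2, 4 or 5, with adjusted p-values of 0.0502 to 0.0879, and with only the groups compared (0.0548). With no filter on low counts, both H2-K1 (adjusted p = 0.0716) and H2-T23 (0.0617) lost their calls. The summed heavy chains gave 0.13 in the same test (adjusted p = 0.0102). That sum was mostly H2-K1 and H2-D1 and does not check H2-T23. Psmb9 lost its call without 27HC replicate 4 (0.0521), ICI replicate 5 (0.071) or ICI + 27HC replicate 5 (0.0659). B2m, which was not called (-0.10, adjusted p = 0.108), passed the threshold without 27HC replicate 5 (0.0408) or ICI replicate 1 (0.029).

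GW3965 with its second compound lowered all 10 genes against Vehicle, by a median of 1.14, with no overlap, where 24.4% of all genes tested were lower and 25.2% higher. Stromal markers summed to 2719 to 3299 CPM in these libraries, against 4273 to 5046 CPM in Vehicle, and macrophage markers to 5471 to 5621 CPM, against 9746 to 10260 CPM. T cell markers, mostly Cd4, summed to 5.67 to 7.53 CPM, against 15.4 to 18.9 CPM, and the part of these shifts was not tested. Against GW3965 alone, 3 of the 10 were higher and 2 lower, where 7.93% of all genes tested were higher and 9.56% lower. Tap1 was at 87.6, 83.8, 88.8, 89.7 and 77.2 CPM with both, against 61.3, 58.1, 65.8, 70.0 and 66.0 CPM with GW3965 alone (log2 fold change 0.41, SE 0.05, adjusted p = 4.79e-08). H2-T23 was at 209, 206, 216, 191 and 195 CPM, against 159 to 181 CPM (0.26, adjusted p = 8.91e-07). For this pair of genes every library given the second compound was above every library of GW3965 alone.

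Tapbp (-0.13, adjusted p = 0.00243) was lower with the second compound, as was H2-K1 (-0.15, adjusted p = 0.000567), whose libraries overlapped. With the heavy chains summed the difference was -0.02 (adjusted p = 0.685). Psmb8 was higher by 0.11 with an adjusted p of 0.0445, and its libraries overlapped. That call was lost with DESeq2 size factors (0.0546), with no filter (0.0521), with only the groups compared (0.101), and without GW3965 replicates 2, 4 or 5 or replicates 1, 2, 3 or 5 of the combination, with adjusted p-values of 0.0524 to 0.208. For H2-D1 the 95% interval was -0.05 to 0.06 and for B2m -0.06 to 0.06.

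The immunoproteasome replaces the constitutive catalytic subunits encoded by Psmb5, Psmb6 and Psmb7 with those of Psmb8, Psmb9 and Psmb10. With 27HC, Psmb5 rose by 0.24 (adjusted p = 3.07e-06), Psmb6 by 0.13 (adjusted p = 0.00681), and Psmb7 was at 0.04 (adjusted p = 0.359). The other inducible genes of the list fell, with Psmb10 at -0.60 (adjusted p = 3.26e-14), and Psme1 and Psme2, subunits of the PA28 activator, at -0.65 (adjusted p = 9.4e-18) and -0.58 (adjusted p = 9.14e-14). In all, 4 of 4 other proteasome genes of antigen processing fell with 27HC (median -0.59) while 3 of 4 constitutive counterparts rose (median 0.16), where 20.0% of all genes tested were lower and 20.3% higher, with a median of -0.00. With GSK2033 3 of the 4 and 4 of the 4 rose, with medians of 0.32 and 0.41, where 18.4% of all genes tested were higher.

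The ratio of inducible to constitutive subunits was taken within each library, as log2 of the summed counts of Psmb8, Psmb9 and Psmb10 over those of Psmb5, Psmb6 and Psmb7. It was -0.80, -0.83, -0.86, -0.83 and -0.84 in 27HC libraries and 0.05 to 0.13 in Vehicle libraries, a difference of -0.92 (exact permutation test, 2-sided, adjusted p = 0.00945 over 24 ratio tests). GW3965 (-1.09), GSK2033 + 27HC (-0.87), ICI + 27HC (-1.23) and GW3965 with its second compound (-1.03) gave the same adjusted p, as did E2 (-0.22) and ICI (-0.10). An unadjusted p of 0.00433 is the smallest that 5 libraries against 6 allow, and 0.00794 the smallest for 5 against 5. GSK2033 alone differed from Vehicle by 0.01 (exact permutation test, adjusted p = 0.553), and both sets of subunits rose with it.

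Between ligand groups, the ratio was 0.17 higher with 27HC than with GW3965 and 0.31 lower with ICI + 27HC than with 27HC (exact permutation test, adjusted p = 0.0119 for both). GSK2033 + 27HC had a mean ratio of -0.78 ± 0.04 and 27HC one of -0.83 ± 0.02 (SD, n = 5 each), and their difference of 0.05 missed the threshold (exact permutation test, adjusted p = 0.0741), but passed it without GSK2033 + 27HC replicate 4 (0.06, adjusted p = 0.0448). Beside GSK2033, H2-K1 was 1.64-fold above its level with 27HC, and Psmb8 and Psmb9 were higher by 0.49 and 0.50 (log2). Of the constitutive counterparts 3 of 4 were also higher (median 0.27), where 21.1% of all genes tested were higher. The summed ratio differed from that with 27HC by 0.05, and its pairs moved in different directions. With GSK2033 + 27HC and with 27HC, log2 of Psmb8 over Psmb5 averaged 0.152 and -0.003. Psmb9 over Psmb6 averaged -2.577 and -2.657, and Psmb10 over Psmb7 -0.742 and -0.652. Libraries overlapped for each pair, and the pairs were not tested.

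**Figure D4:**
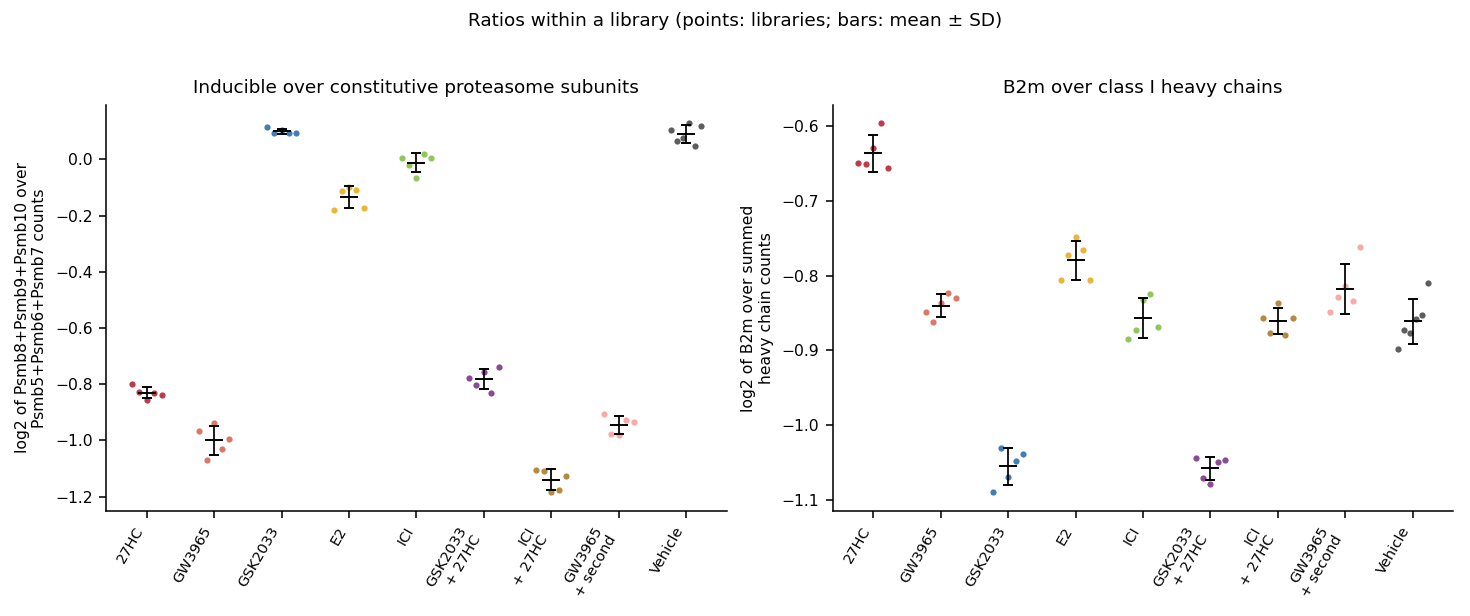
Ratios within a library (y axes, log2) by treatment group (x axes): summed counts of the inducible over the constitutive catalytic proteasome subunits (left), and counts of B2m over the summed class I heavy chain genes (right). Points are libraries and bars are the mean ± SD. On the left, GSK2033 (0.10) lies beside Vehicle (0.09) and GSK2033 + 27HC (-0.78) beside 27HC (-0.83), and on the right GSK2033 + 27HC (-1.06) lies with GSK2033 (-1.05) below Vehicle (-0.86) and 27HC (-0.64) above it.

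Each heavy chain pairs with a light chain, and B2m was set against the summed counts of the 27 heavy chain genes within each library. The log2 ratio averaged -0.64 ± 0.03 with 27HC and -0.86 ± 0.03 in Vehicle (SD; difference 0.22, exact permutation test, adjusted p = 0.00945). GSK2033 (-1.05) and GSK2033 + 27HC (-1.06) were lower than Vehicle by 0.19 and 0.20 with the same adjusted p. The ratio was 0.42 lower with GSK2033 + 27HC than with 27HC (exact permutation test, adjusted p = 0.0119), and 0.20 higher with 27HC than with GW3965. With GW3965 it was at -0.84 ± 0.02, 0.02 from Vehicle (exact permutation test, adjusted p = 0.234), which passed the threshold without Vehicle replicate 6 (0.03, adjusted p = 0.0423). The same library decided the value of GW3965 with its second compound, 0.04 above Vehicle (adjusted p = 0.0733) and 0.05 without it (adjusted p = 0.0112). With the log2 CPM of the heavy chain genes averaged instead of their counts summed, the GW3965 difference became 0.70 (adjusted p = 0.00799) and the 27HC to GW3965 difference -0.07 (adjusted p = 0.147).

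Of 21 other class I and class I-like heavy chain genes, 14 could be tested. With 27HC 12 fell and none rose (median -1.44), where 20.0% of all genes tested were lower, and with GW3965 12 fell and none rose (median -1.73), where 21.1% were lower. H2-Q7, a non-classical chain of the Qa-2 group, averaged 11.9 ± 1.13 CPM with 27HC and 7.6 ± 0.22 CPM with GW3965, against 64.4 ± 3.1 CPM in Vehicle (SD), log2 fold changes of -2.44 (adjusted p = 1.66e-32) and -3.08 (adjusted p = 6.78e-36). H2-Q4 fell by 1.81, H2-Q6 by 2.13 and H2-T22 by 1.48 with 27HC. The class I-like chains Mr1 (-0.51) and Fcgrt (-0.47) fell less than H2-D1, and Cd1d1 (-0.22, adjusted p = 0.196) missed the threshold. With GSK2033 8 of the 14 rose and 2 fell (median 0.65), where 18.4% of all genes tested were higher and 17.9% lower, led by H2-M2 (2.29, adjusted p = 5.41e-29) and H2-Q6 (1.58, adjusted p = 3.18e-26). With E2 7 fell and none rose (median -0.39), where 2.49% of all genes tested were lower. Against 27HC alone, 11 of the 14 were higher and 1 lower with GSK2033 + 27HC (median 1.01), where 21.1% of all genes tested were higher and 21.7% lower, with H2-Q7 at 2.23. Where heavy chain genes share sequence, their reads may be split between them in the estimates.

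Of 9 tested chaperones and trimming enzymes of the loading pathway, most of which serve other proteins too, 6 rose and 1 fell with 27HC (median 0.15), where 20.3% of all genes tested were higher and 20.0% lower. Calr, a chaperone of the loading complex, averaged 2101 ± 34.7 CPM with 27HC and 1696 ± 47.6 CPM in Vehicle (SD; log2 fold change 0.31, adjusted p = 1.57e-16), and Hspa5, the general chaperone BiP, rose by 0.49 (adjusted p = 9.72e-24). Pdia3, an oxidoreductase of the loading complex, rose by 0.15 (adjusted p = 6.75e-09). Tapbpl, a tapasin-related editor of peptides, fell by 0.62 (adjusted p = 3.06e-11). With E2 the nearest of the 9 to the threshold was Tapbpl (-0.20, adjusted p = 0.056).

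Among 20 regulators of class I transcription, 3 rose and 8 fell with 27HC (median -0.10), where 20.3% of all genes tested were higher and 20.0% lower. With GW3965 3 rose and 9 fell (median -0.18), where 23.1% were higher and 21.1% lower. Stat2, a transcription factor of interferon signalling, fell by 1.60 with 27HC and 2.07 with GW3965, and Irf1, an interferon-induced activator, by 0.87 and 1.19. Irf8, a factor of the macrophage lineage, went the other way, by 0.37 with 27HC and 0.79 with GW3965. With GSK2033 4 of the 20 rose and 7 fell (median -0.08), where 18.4% of all genes tested were higher and 17.9% lower, so the number that rose was near the background. Irf8 (-0.63) and the interferon gamma receptor gene Ifngr1 (-0.53) were among those that fell, and the 4 that rose are not named here. With E2 4 of the 20 fell and none rose, where 2.49% of all genes tested were lower, among them Stat2 (-0.41), Irf1 (-0.23) and Irf9 (-0.14).

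Across the 9 group means of log2 CPM, Pearson's r between pairs of the 10 genes ran from 0.95 to 1.00 over 45 pairs, with a median of 0.98. Within groups, over the 46 libraries centred on their group means, it ran from -0.14 to 0.85 with a median of 0.30. The points share libraries and scaling, and both are given as descriptions. The genes outside the 10 whose group means followed the average of the 10 most closely were Gbp2, Igtp, Parp12, Daxx, H2-T22, Ifi214, Trex1 and Ms4a4c, with r from 0.99 to 1.00 over 9 groups. Relative to each gene's mean over groups, the 10 averaged -0.48 with 27HC, -0.63 with GW3965 and 0.85 with GSK2033, against 0.51 in Vehicle, and the span of Ms4a4c was wider (-1.91, -3.37 and 4.03, against 2.78).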

How the data were processed

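RNA-seq of polyadenylated RNA from macrophages (TruSeq Stranded, NovaSeq, per the labels' protocols) was deposited as estimated counts per gene, which the authors made with kallisto 0.44.0 on GRCm38, per the submitters' processing notes. The strand setting is not given in the sources used here. Counts were rounded, filtered with filterByExpr, scaled by TMM and tested with edgeR 4.0.16 (quasi-likelihood, R 4.3.3) in 1 fit of all 46 libraries, with Benjamini-Hochberg adjustment over 13838 genes. Ratios used exact permutation tests, 2-sided, adjusted over 24 tests. Scripts were tested on simulated data. The alternatives were DESeq2 1.42.0 size factors and Wald test, no filter, a replicate block, only the groups compared, summed heavy chains, averaged log2 CPM and leaving out each library. The 10 genes and all gene lists were chosen with earlier results of these data known. Named genes were the 10, list genes with strong calls, some list genes with weak or no calls, and the 8 others nearest in pattern. Positions are from GENCODE M21. The motif GAANNGAAA was added after the sequences were seen. Some genes of the lists are not reported here.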

Additional observations from a re-analysis of the deposited data

Results flagged for a closer look

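In 4 of 108 groups of libraries, a group being 1 of the 10 genes or of the ratios within a library in 1 treatment, a single library stood apart from the others of its group; chance flags about 1 in 20 groups. H2-K1 was lowest in GW3965 replicate 4, at 1456 CPM. B2m was lowest in GSK2033 replicate 4, at 5371 CPM. Tapbp was highest in GW3965 replicate 5, at 511.8 CPM. Psmb8 was highest in replicate 3 of GW3965 with its second compound, at 158.0 CPM.

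The change with 27HC differed when GSK2033 was present. On the log2 scale the difference was 0.3942 for H2-K1, 0.2607 for H2-D1, 0.2156 for H2-T23, 0.2943 for Tap1 and 0.2068 for Tapbp. It also differed when ICI was present, by 0.1276 for H2-K1, 0.1402 for H2-D1, -0.1553 for H2-T23, -0.2078 for Tapbp and -0.3149 for Psmb9. No cause of these differences was tested.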

How the results depend on the processing

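The counts of all genes called in the 16 comparisons stayed within 1.5 times under each alternative run. Leaving out the filter on low counts left 3 of the 10 genes, instead of 5, called in the interaction of ICI and 27HC, and the fits without 1 library gave 3 to 5. With DESeq2 size factors, and with the DESeq2 Wald test, the log2 fold change of H2-T23 in ICI + 27HC against 27HC was -0.0007 and that of B2m in GW3965 with its second compound against GW3965 was -0.0016. The Psmb8 interaction of GSK2033 and 27HC was 0.0058 with no filter. The class I heavy chains summed gave -0.0189 for ICI against Vehicle and -0.0205 for GW3965 with its second compound against GW3965, opposite in sign to H2-D1 and H2-T23. The sum gave -0.0774 for 27HC against GW3965 and 0.1327 for the interaction of ICI and 27HC, opposite in sign to H2-T23. It was mostly H2-K1 and H2-D1 counts and does not check H2-T23.

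With the heavy chains' log2 CPM averaged, the B2m to heavy chain ratio differed from Vehicle by 0.696 with GW3965, -0.168 with ICI, 0.04 with ICI + 27HC and 0.49 with GW3965 and its second compound, by -0.074 for 27HC against GW3965 and by -0.206 for the second compound against GW3965. The average weighs each tested heavy chain gene equally, while the sum weighs genes by their counts, which are mostly H2-K1 and H2-D1. The part of this weighting in the changes was not tested.

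Libraries with the same replicate number hardly deviated together from their group means. Whether they share an animal or culture cannot be told from that. Correlations of same-numbered libraries of different groups ran from -0.072 to 0.1 over 180 pairs, and those of differently numbered ones from -0.136 to 0.105 over 760. With the replicate block the Psmb8 interaction of GSK2033 and 27HC was 0.0035. The calls of Nlrc5 with GSK2033 and Psmb9 with E2 were lost and that of Tap1 with ICI was gained.

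Without 1 library at a time, the B2m to heavy chain ratio ran from 0.014 to 0.031 for GW3965, -0.004 to 0.014 for ICI, -0.008 to 0.01 for ICI + 27HC and 0.029 to 0.053 for GW3965 with its second compound, all against Vehicle, and the immunoproteasome ratio from 0.038 to 0.061 for GSK2033 + 27HC against 27HC. Log2 fold changes ran from -0.0331 to 0.0077 for B2m and -0.011 to 0.022 for H2-D1 with ICI against Vehicle, and from -0.0101 to 0.0451 for Tap2 with 27HC against GW3965. For ICI + 27HC against 27HC they ran from -0.0198 to 0.0162 for H2-K1, -0.0335 to 0.0171 for H2-T23, -0.015 to 0.0509 for Tap1 and -0.0144 to 0.0362 for Tap2. For the second compound against GW3965 they ran from -0.0244 to 0.0192 for B2m, -0.0152 to 0.028 for H2-D1 and -0.0503 to 0.2823 for Nlrc5, and for the interaction of GSK2033 and 27HC from -0.0221 to 0.0154 for Psmb8 and -0.012 to 0.0683 for Psmb9.

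Depth limits Nlrc5 most, at 190 to 1192 counts per library. Reads shared between heavy chains, the unstated strand setting for the overlapping Tap1 and Psmb9, and the unknown origin of the replicates limit the other values.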
